A study of Danio rerio with 8 samples.

Results

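The genes described here are 10 members of the YAP and TEAD pathway and its CCN targets in zebrafish cartilage cells. The coactivator genes are yap1 (ENSDARG00000068401) and wwtr1 (ENSDARG00000067719), and the transcription factor genes tead1a (ENSDARG00000028159) and tead1b (ENSDARG00000059483). The angiomotin-like gene is amotl2a (ENSDARG00000061923). The CCN genes are ctgfa (ENSDARG00000042934), ctgfb (ENSDARG00000104292), cyr61 (ENSDARG00000023062), cyr61l1 (ENSDARG00000035422) and cyr61l2 (ENSDARG00000099985). They were picked by symbol. All 10 were found, as 10 of the 32057 genes in the deposited table, and all 10 passed the filter on low values among the 11763 genes tested. RNA was sequenced from 4 kat6a and 4 WT libraries of Danio rerio larvae, 3 days after fertilisation. The kat6a larvae were of the genotype kat6a, with the transgenes Tg(sox10:EGFP) and Tg(col2a1a:mcherry), and the WT larvae carried both transgenes and no kat6a entry. All larvae were kept at 28.5 degrees in medium with 0.003% PTU, which blocks pigment. The sorted cells were positive for both reporters; sox10 is active in neural crest and col2a1a in cartilage, so the sort selects by 2 promoters and not by cell type itself. The sources used here give neither the kat6a allele nor the number of larvae behind a library, and the study's design text calls the 4 libraries of each group biological replicates.

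YAP and its relative TAZ, the product of wwtr1, are coactivators held back by the Hippo kinases. When they enter the nucleus they bind TEAD factors, which contact DNA, and turn on genes such as those of the CCN family. CCN proteins are secreted and bind integrins, growth factors and matrix. In the mouse, Ccn2, the counterpart of ctgfa and ctgfb, is needed for normal cartilage growth. Angiomotin-like proteins bind YAP and restrain it, and their genes are themselves among the targets of YAP, so amotl2a stands on both sides of the pathway. In the zebrafish naming used by the table, wwtr1 is the gene of the coactivator TAZ, while the row named taz belongs to tafazzin, an enzyme of mitochondrial lipids, and was not used.

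The unit is FPKM, fragments scaled by transcript length and by mapped fragments, so levels can be compared between genes. Read counts are not kept in FPKM, and depth is therefore unknown. FPKM summed to between 311061 and 339307 per library, with 11010 to 16108 genes above 0, the fewest in kat6a replicate 4. The cartilage markers col2a1a, matn1, acana and sox9a were high in all libraries, with a lowest value of 294 FPKM, for sox9a. The 2 libraries numbered 1 stood apart from the others: the 22 cartilage markers summed to 53583 FPKM in kat6a replicate 1 and 44062 in WT replicate 1, against 80281 to 92200 in the other 6. The markers did not all follow this sum. While col2a1a and matn1 were lowest in the libraries numbered 1, acana was highest there. It stood at 2127 FPKM in kat6a replicate 1 and 2389 in WT replicate 1, against 1240 to 1636.5 in the others. The highest sox9a value, 905 FPKM, was that of WT replicate 1. Each fold change sets kat6a over WT as a difference of log2(FPKM + 1), a scale that shrinks the change of low genes, and was tested with limma over all genes. The median over all genes tested was -0.16, so a gene that moved like the typical gene has a log2 fold change near that value and not near 0. The targeted gene kat6a stood at 15.4 ± 8.65 FPKM in kat6a and 20.6 ± 7.74 in WT libraries (SD, n = 4 each), with a log2 fold change of -0.46 ± 0.36 (SE), at a limma adjusted p of 0.958. It was lower in kat6a in 4 of 4 pairs, with folds of 0.882, 0.786, 0.764 and 0.481, as were 16.3% of all genes. With the replicate number as a block limma gave this gene an unadjusted p of 0.0315 and an adjusted p of 0.458. In that fit 8.31% of all genes were lower at an unadjusted p under 0.05. The log2 fold change of the gene kat6a was -0.24 without WT replicate 1, -0.27 without kat6a replicate 4 and -0.78 without kat6a replicate 1. Under median-ratio, quantile and upper-quartile scaling it was -0.31, -0.37 and -0.32. With both libraries numbered 1 left out it was -0.56, at a limma unadjusted p of 0.0175 and an adjusted p of 0.769. There 536 of the 11763 genes tested were lower at an unadjusted p under 0.05.

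None of the 10 members differed between the groups in limma at an adjusted p under 0.05, where 0.017% of all genes tested did. At an unadjusted p under 0.05 there was 1 member, ctgfa, which was higher in kat6a; of all genes 4.57% had such a p, 0.646% higher and 3.92% lower. The smallest adjusted p among the members was 0.958. By sign, 5 of the 10 had a log2 fold change above 0, against 30.5% of all genes, and the median of the members was 0.02. The contrast depended on the scaling: it was 7 members against 45.0% of all genes with median ratios, 7 against 43.9% with upper quartiles and 6 against 52.3% with quantile normalisation, with medians of the members of 0.16, 0.14 and 0.13. None of the members had groups without overlap, a pattern shown by 0.561% of all genes on the higher side and 2.57% on the lower. In bulk RNA, fewer cells of a type and less RNA per cell cannot be told apart.

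The CCN genes ctgfa, cyr61 and cyr61l2 were the most abundant members, and the TEAD genes the least. Ordered by mean over the 8 libraries, ctgfa was at 246 FPKM, cyr61 at 96.9, cyr61l2 at 64.1, yap1 at 29.0, cyr61l1 at 22.9, wwtr1 at 18.3, ctgfb at 8.84, amotl2a at 6.34, tead1a at 4.26 and tead1b at 3.28. The step between cyr61l2 and yap1, and that between wwtr1 and ctgfb, held in 8 of 8 libraries. The steps between ctgfa and cyr61 and between cyr61 and cyr61l2 each held in 7 of 8. Lower down the neighbours could not be ordered: yap1 exceeded cyr61l1 in 3 of 8 libraries, cyr61l1 exceeded wwtr1 in 5, ctgfb exceeded amotl2a in 5, amotl2a exceeded tead1a in 6 and tead1a exceeded tead1b in 4. For ctgfa the rank among all genes of a library lay between 87 and 348, counted from the highest level.

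ctgfa, a matricellular gene used widely as a readout of YAP, was higher in the kat6a library of 4 of 4 pairs that share a replicate number. Its FPKM was 159, 325, 264 and 502 in kat6a replicates 1 to 4, against 138, 229, 192 and 156 in WT replicates 1 to 4. The highest value was that of kat6a replicate 4, the lowest kat6a value lay inside the WT range, and the groups overlapped. The mean was 313 ± 144 FPKM in kat6a and 179 ± 40.5 in WT (SD, n = 4 each), a ratio of 1.75. On the log2 scale the difference was 0.71 ± 0.32 (SE), or 0.87 above the median of all genes, with a limma unadjusted p of 0.0493 and an adjusted p of 0.958. The limma unadjusted p was under 0.05 in 5 of 16 alternative fits and ran from 0.00355 to 0.150. Under median-ratio, quantile and upper-quartile scaling it was 0.0674, 0.0784 and 0.0784. The log2 difference was 0.44 without kat6a replicate 4, whose value was the highest, and 0.88 without the pair numbered 1. kat6a replicate 4 was also the library with the fewest genes above 0, 11010, and the part of this in the result was not tested. Across all genes 4.49% were higher in 4 of 4 pairs, and among the members ctgfa and cyr61l1 were.

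ctgfb, the paralog of ctgfa, was far lower in level. It stood at 20.7, 6.70, 7.49 and 6.90 FPKM in kat6a replicates 1 to 4 and at 11.0, 7.30, 5.17 and 5.43 in WT replicates 1 to 4. In both groups the library numbered 1 was the highest, the reverse of ctgfa, which was lowest there in each group. The log2 fold change was 0.38 ± 0.38 (SE), at a limma adjusted p of 0.968, and was 0.02 when kat6a replicate 1 was left out. Without the pair numbered 1 it was 0.22. The ratio of ctgfa over ctgfb was 7.66 in kat6a replicate 1 and 12.6 in WT replicate 1, against 28.7 to 72.8 in the other libraries of both groups.

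**Figure D1:**
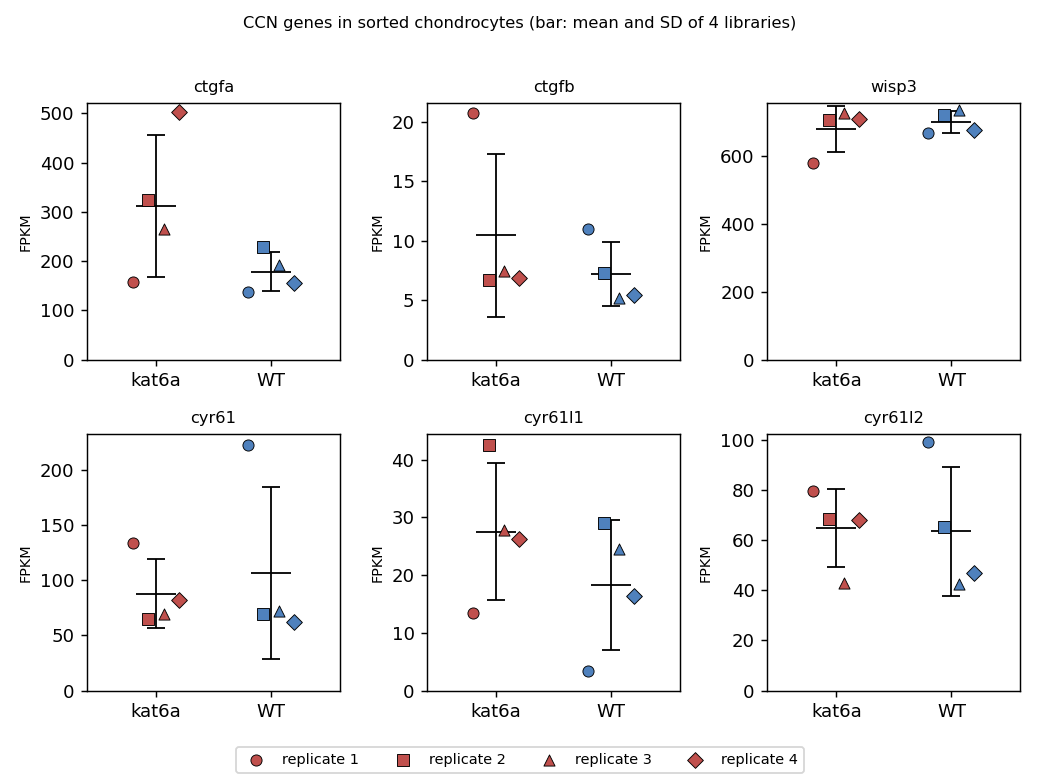
FPKM (vertical axes, from 0) of 6 CCN genes in the 4 kat6a and 4 WT libraries; each point is a library, its shape gives the replicate number, and the bars give the mean and SD. For ctgfa 3 of the 4 kat6a libraries lie above the highest WT library, at 229 FPKM, while the circles, the libraries numbered 1, are at the top for ctgfb, cyr61 and cyr61l2 and at the bottom for ctgfa and cyr61l1.

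The 3 cyr61 genes, counterparts of mammalian CCN1, differed in level and in which libraries were high. cyr61 itself was at 133, 65.1, 69.7 and 82.2 FPKM in kat6a replicates 1 to 4 and at 223, 69.0, 71.9 and 61.7 in WT replicates 1 to 4. Outside the libraries numbered 1 its range was 61.7 to 82.2 FPKM across both groups. Its log2 fold change was -0.11 ± 0.40 (SE), at a limma adjusted p of 0.994, and turned to 0.09 without the pair numbered 1, to 0.05 under median-ratio scaling and to 0.03 under upper-quartile scaling.

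cyr61l1 was higher in kat6a in 4 of 4 pairs. Its FPKM was 13.5, 42.5, 27.8 and 26.3 in kat6a replicates 1 to 4 and 3.38, 29.0, 24.6 and 16.3 in WT replicates 1 to 4. WT replicate 1 was the lowest of the 8 by a wide margin, and the other WT values lay among those of kat6a. The log2 fold change was 0.77 ± 0.57 (SE), at a limma adjusted p of 0.958. Leaving out WT replicate 1 gave 0.16, and leaving out the pair numbered 1 gave 0.45.

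cyr61l2 stood at 79.6, 68.5, 43.0 and 67.8 FPKM in kat6a replicates 1 to 4 and at 99.2, 65.3, 42.3 and 46.9 in WT replicates 1 to 4. The values of the pairs numbered 2 and 3 nearly coincided, at folds of 1.05 and 1.02. Its log2 fold change was 0.08 ± 0.29 (SE), at a limma adjusted p of 0.994, and 0.21 without the pair numbered 1.

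The CCN gene with the highest level was not a member. wisp3, the counterpart of human CCN6, whose loss causes a cartilage disease in people, stood at 579.5, 705, 725 and 709 FPKM in kat6a replicates 1 to 4 and at 667, 719, 734 and 677 in WT replicates 1 to 4. It exceeded ctgfa in 8 of 8 libraries. Its log2 fold change was -0.05 ± 0.13 (SE), the smallest SE among the CCN genes tested, at a limma adjusted p of 0.989; the sign turned under median-ratio scaling, to 0.11, and under upper-quartile scaling, to 0.10. wisp2 was low, at 0.644, 0.952, 0.161 and 2.16 FPKM in kat6a and 0.236, 0.816, 1.18 and 0.479 in WT, with a log2 fold change of 0.17 ± 0.36 (SE), at a limma adjusted p of 0.989. The remaining CCN rows did not pass the filter: wisp1b was listed at 0 in all libraries, and wisp1a at 0 in all but WT replicates 1 and 2, at 0.689 and 0.268 FPKM. An exact 0 in this table can be a failed estimate, so it is only a listed value.

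A single scaling factor per library leaves the mix of CCN transcripts within it as it is, which quantile normalisation does not. Of the summed FPKM of the 5 CCN members, ctgfa made up 39.1%, 64.0%, 64.1% and 73.3% in kat6a replicates 1 to 4 and 29.2%, 57.4%, 57.2% and 54.5% in WT replicates 1 to 4. The share was higher in kat6a in 4 of 4 pairs, by 10.6 percentage points in the mean, and the groups overlapped through kat6a replicate 1. Leaving out that pair gave a difference of 10.8 points, and leaving out WT replicate 1 alone gave 3.78. The share of cyr61 was 32.8%, 12.8%, 16.9% and 12.0% in kat6a and 46.9%, 17.2%, 21.4% and 21.6% in WT, and that of cyr61l2 9.89% to 19.6% in kat6a and 12.6% to 20.9% in WT, both lower in kat6a in 4 of 4 pairs. Since the shares sum to a whole, a higher share of ctgfa lowers the others. Set against wisp3, which is outside the sum, ctgfa was also higher: wisp3 over ctgfa was 3.65, 2.17, 2.74 and 1.41 in kat6a replicates 1 to 4 and 4.82, 3.14, 3.82 and 4.34 in WT replicates 1 to 4, lower in kat6a in 4 of 4 pairs, with 1 kat6a value inside the WT range. These ratios were chosen after the values were seen, and they were not tested.

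**Figure D2:**
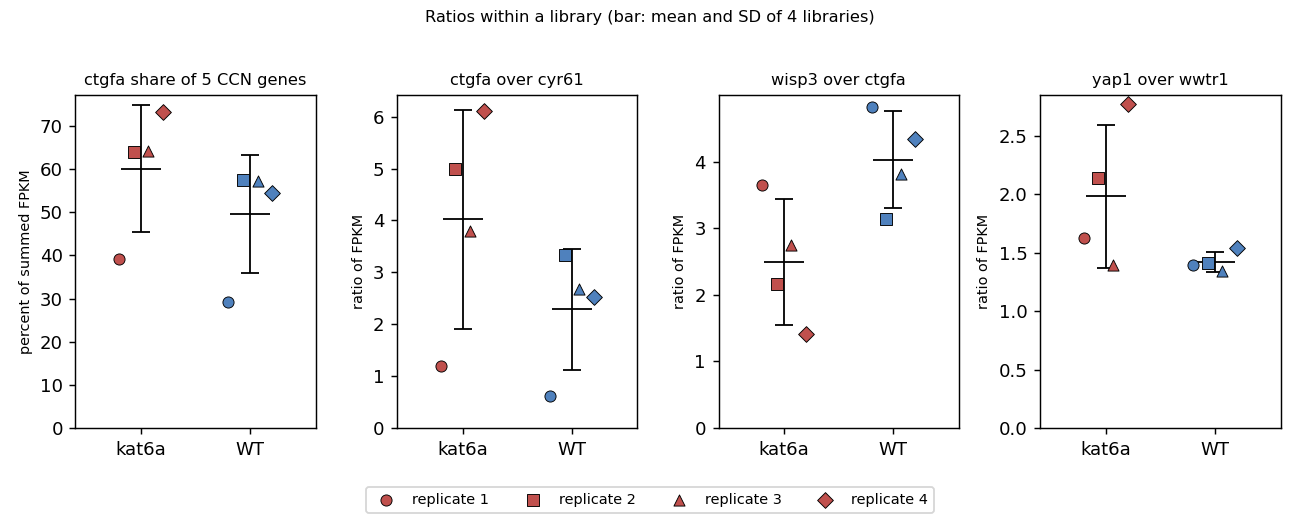
Ratios formed within each library, from left to right the share of ctgfa in the summed FPKM of the 5 CCN members (percent), and the FPKM ratios ctgfa over cyr61, wisp3 over ctgfa and yap1 over wwtr1, for 4 kat6a and 4 WT libraries with the mean and SD. The ratio of yap1 over wwtr1 lies within 1.35 to 1.54 in WT and reaches 2.77 in kat6a replicate 4.

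The coactivator gene yap1 had 41.8, 21.7, 20.3 and 26.1 FPKM in kat6a replicates 1 to 4 and 44.7, 24.3, 23.8 and 29.5 in WT replicates 1 to 4. It was lower in kat6a in 4 of 4 pairs by similar factors, with folds of 0.935, 0.892, 0.851 and 0.885, and the spread between numbers was far wider than that between groups. Its log2 fold change of -0.16 ± 0.28 (SE), at a limma adjusted p of 0.989, was close to the median of all genes. After median-ratio scaling it was -0.01, and without WT replicate 1 it turned to 0.03. Lower values in 4 of 4 pairs were found for 16.3% of all genes, and for 3 members, yap1, wwtr1 and tead1a.

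wwtr1 had the larger difference of the coactivators. Its FPKM was 25.7, 10.1, 14.6 and 9.42 in kat6a replicates 1 to 4 and 32.2, 17.2, 17.7 and 19.1 in WT replicates 1 to 4. In kat6a 3 of the 4 libraries lay below the lowest WT library, and kat6a replicate 1 lay inside the WT range. The mean was 15.0 ± 7.53 FPKM in kat6a and 21.6 ± 7.11 in WT (SD, n = 4 each), and the log2 fold change was -0.56 ± 0.33 (SE), or -0.40 against the median of all genes, with limma unadjusted p = 0.124 and an adjusted p of 0.958. It stayed between -0.84, without kat6a replicate 1, and -0.36, without WT replicate 1, and was -0.64 without the pair numbered 1. The ratio of yap1 over wwtr1 was 1.63, 2.14, 1.39 and 2.77 in kat6a replicates 1 to 4, against 1.39, 1.41, 1.35 and 1.54 in WT replicates 1 to 4. It was narrow in WT and wide in kat6a, and higher in kat6a in 4 of 4 pairs. Like the CCN ratios, this ratio was chosen after the values were seen and was not tested.

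The TEAD genes were low. tead1a was at 2.87, 6.22, 2.15 and 2.11 FPKM in kat6a replicates 1 to 4 and at 8.23, 7.28, 2.77 and 2.43 in WT replicates 1 to 4, highest in WT replicate 1 and in both libraries numbered 2. Its log2 fold change was -0.46 ± 0.42 (SE), at a limma adjusted p of 0.963, and -0.20 without the pair numbered 1, whose fold of 0.349 was the lowest of the 4. tead1b, its paralog, was at 6.35, 1.12, 1.46 and 4.30 FPKM in kat6a and at 5.78, 0.950, 3.06 and 3.24 in WT, lowest in the libraries numbered 2, where tead1a was high. Its log2 fold change was -0.04 ± 0.49 (SE), at a limma adjusted p of 0.999, and the sign turned under median-ratio, quantile and upper-quartile scaling, to 0.08, 0.16 and 0.07. The ratio of tead1a over tead1b was 5.56 in kat6a replicate 2 and 7.66 in WT replicate 2, against 0.452 to 1.47 in the other 6 libraries. Summed, the 2 genes gave 3.60 to 9.23 FPKM in kat6a and 5.67 to 14.0 in WT.

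Of the other TEAD genes tead3b had a level above that of the members tead1a and tead1b in several libraries. It was listed at 10.5, 3.81, 4.98 and 0 FPKM in kat6a replicates 1 to 4 and at 14.0, 4.76, 4.82 and 5.85 in WT replicates 1 to 4. The fitted log2 fold change of -0.85 ± 0.66 (SE), at a limma adjusted p of 0.958, rests on the 0 of kat6a replicate 4, without which it was -0.15. tead3a was listed at 0, 0.308, 0.916 and 0 FPKM in kat6a and at 1.42, 0.665, 0.211 and 1.35 in WT.

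amotl2a, the restraining partner and target of YAP, was at 7.13, 5.51, 9.37 and 6.63 FPKM in kat6a replicates 1 to 4 and at 4.02, 7.73, 5.35 and 4.98 in WT replicates 1 to 4. It was higher in kat6a in 3 of 4 pairs, the pair numbered 2 going the other way, and the groups overlapped. The log2 fold change was 0.33 ± 0.26 (SE), at a limma adjusted p of 0.958, and 0.21 without the pair numbered 1. Its paralog amotl2b, named after its values were seen, was at 14.8 ± 5.61 FPKM in kat6a and 16.2 ± 7.33 in WT (SD, n = 4 each), with a log2 fold change of -0.11 ± 0.35 (SE) that turned to 0.04 under median-ratio and 0.03 under upper-quartile scaling.

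**Figure D3:**
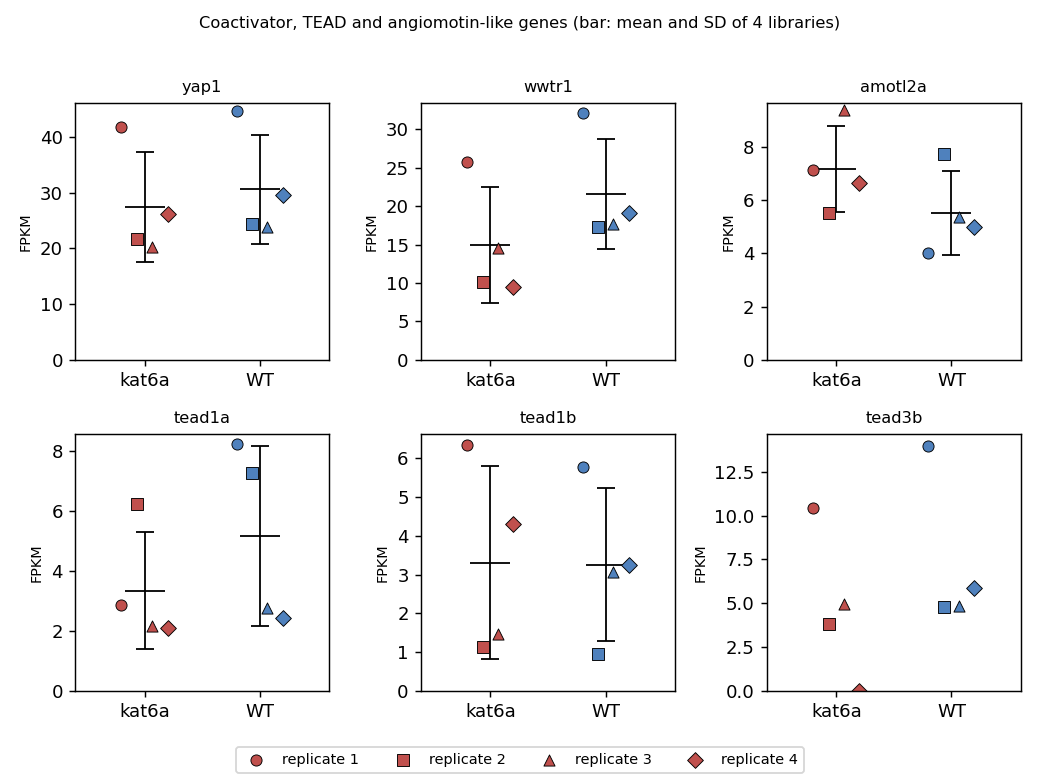
FPKM (vertical axes, from 0) of the coactivator genes yap1 and wwtr1, of amotl2a and of 3 TEAD genes in the 4 kat6a and 4 WT libraries; each point is a library, its shape gives the replicate number, and the bars give the mean and SD, left out for tead3b because it is listed at 0 in kat6a replicate 4. The libraries numbered 1 are the highest of their group for yap1 and wwtr1, and 3 of the 4 kat6a libraries lie below all WT libraries for wwtr1.

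The replicate numbers were taken to pair the libraries, and this pairing was not tested against others. A fit with the replicate number as a block changed the count of members at an unadjusted p under 0.05 to 3. With the block ctgfa had an unadjusted limma p of 0.0194 and cyr61l1 of 0.0188, both higher, and wwtr1 of 0.0120, lower. The adjusted p was 0.451 for each, the smallest among the members, so none was called. At that unadjusted threshold the blocked fit gave 2.09% of all genes higher and 8.31% lower, and at an adjusted p under 0.05 it gave 0.0085%.

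**Figure D4:**
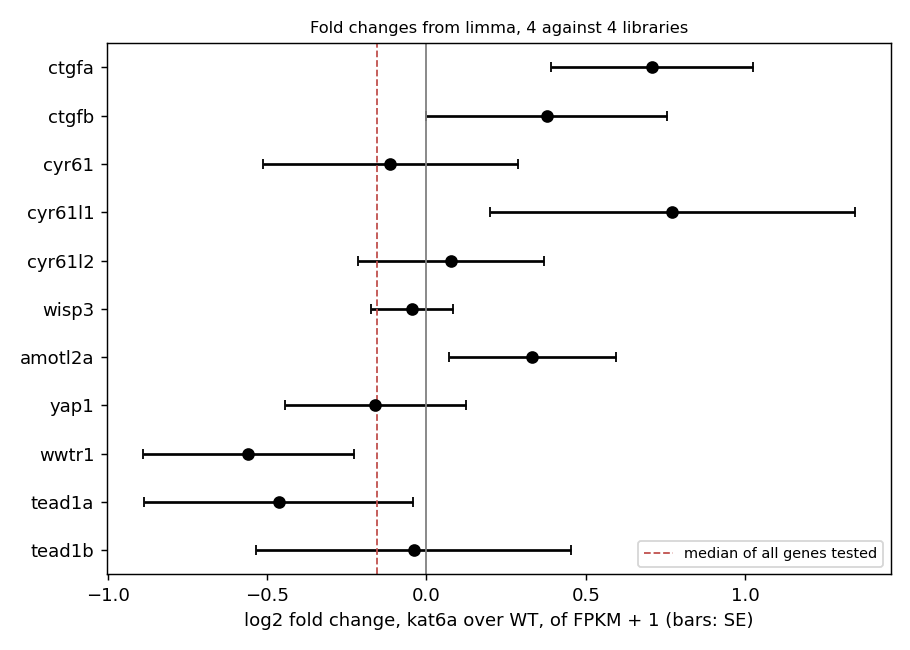
log2 fold change of FPKM + 1, kat6a over WT (horizontal axis), with its SE from limma for the 10 members and wisp3; the dashed line is the median of all genes tested, -0.16. The values run from 0.77 for cyr61l1 and 0.71 for ctgfa to -0.56 for wwtr1, and yap1 lies on the dashed line.

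**Figure D5:**
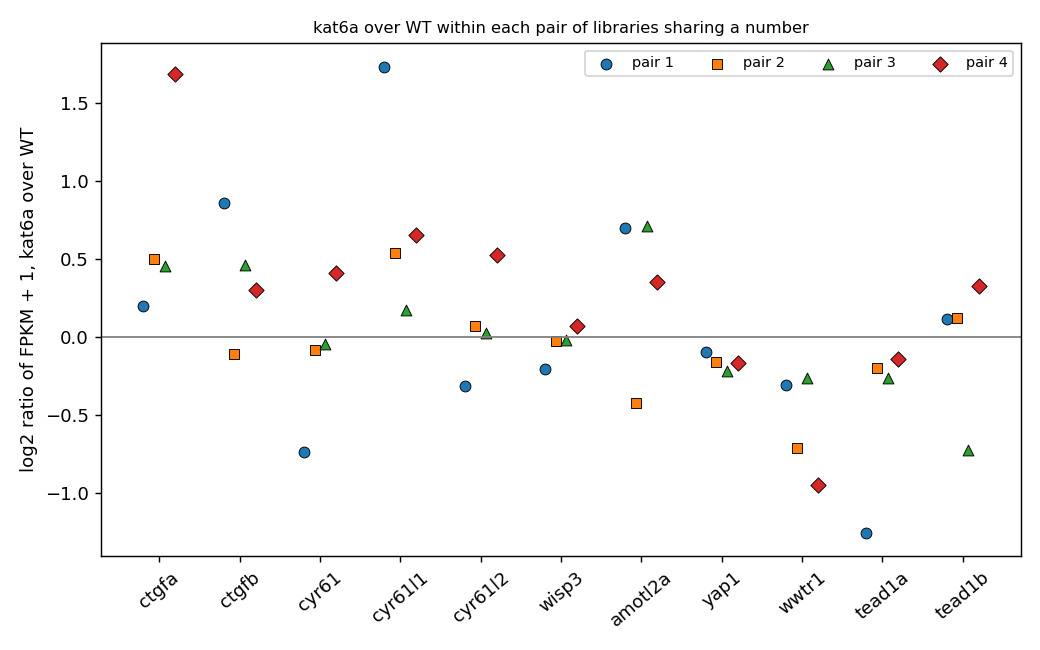
log2 ratio of FPKM + 1, kat6a over WT (vertical axis), within each pair of libraries with the same replicate number, for the 10 members and wisp3. All 4 points lie above 0 for ctgfa and cyr61l1 and below 0 for yap1, wwtr1 and tead1a; the highest are 1.73 for cyr61l1 in pair 1 and 1.68 for ctgfa in pair 4.

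The rest of the pathway was read from 3 lists. Of the Hippo core and coactivator list, with kinases, scaffolds and cofactors, 24 of 29 rows were tested, none was called by limma and none had an unadjusted p under 0.05; 4 of the 24 had a log2 fold change above 0, against 30.5% of all genes, and the median was -0.21, against -0.16 for all genes. The 2 with the smallest p were vgll4a, a cofactor that competes with YAP for TEAD, at 0.459, 0.889, 0.589 and 0.818 FPKM in kat6a and 2.15, 0.804, 1.47 and 1.89 in WT, and mob1a, a kinase adaptor, at 1.49, 1.89, 2.37 and 3.45 FPKM in kat6a and 6.42, 2.60, 2.85 and 4.01 in WT. Their log2 fold changes were -0.59 ± 0.28 and -0.57 ± 0.32 (SE), each at a limma adjusted p of 0.958. That of vgll4a was -0.31 under quantile normalisation. That of mob1a was -0.34 there, -0.35 when WT replicate 1 was left out and -0.23 when the pair numbered 1 was. Their paralogs, named after their values were seen, differed. vgll4b, at a mean of 17.3 FPKM over the 8 libraries against 1.13 for vgll4a, had -0.14 ± 0.24 (SE). mob1ba had 0.67 ± 0.44 (SE), with its lowest value, 0.802 FPKM, in WT replicate 4, and mob1bb had -0.02 ± 0.29 (SE). The kinase genes lats1 and lats2, which phosphorylate YAP, and the scaffold gene sav1 had -0.30 ± 0.37, -0.15 ± 0.25 and -0.17 ± 0.27 (SE); these were named after their values were seen. With the block 2 of the 24 had an unadjusted p under 0.05, both lower, a share near the 8.31% of all genes; they were the member wwtr1 and dchs1a, a cadherin gene of the upstream pathway named after its values were seen.

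The YAP target list holds zebrafish counterparts of a signature drawn from human tumours, and includes the CCN members and amotl2a. Of its 29 rows 26 were tested; limma called none, and ctgfa was the 1 gene with an unadjusted p under 0.05, where 4.57% of all genes had one. The log2 fold change was above 0 for 10 of the 26, against 30.5% of all genes, with a median of -0.09, which turned to 0.07 and 0.05 under median-ratio and upper-quartile scaling and to 0.02 without the pair numbered 1. With the block 3 genes, ctgfa, cyr61l1 and f3b, had an unadjusted p under 0.05 and were higher, and none was lower, against 2.09% and 8.31% of all genes. Outside the members, f3b, the gene of tissue factor, was at 182, 230, 146 and 198 FPKM in kat6a and 174, 162, 131 and 156 in WT, and gadd45ab, a stress response gene, at 18.2, 23.9, 18.7 and 30.5 FPKM in kat6a and 15.7, 19.0, 17.0 and 17.2 in WT, each higher in kat6a in 4 of 4 pairs. Higher values in 4 of 4 pairs were found for 4.49% of all genes. The log2 fold changes of f3b and gadd45ab were 0.27 ± 0.18 and 0.36 ± 0.21 (SE). That of f3b was 0.17 without kat6a replicate 2 and 0.43 under median-ratio scaling, and that of gadd45ab 0.21 without kat6a replicate 4. The forkhead gene foxf2a went the other way, at 2.74, 3.09, 5.77 and 2.50 FPKM in kat6a and 4.50, 4.80, 6.16 and 5.61 in WT, a log2 fold change of -0.52 ± 0.28 (SE), which was -0.29 under quantile normalisation. These 3 genes, f3b, gadd45ab and foxf2a, had a limma adjusted p of 0.958 and were named after their values were seen. The paralogs f3a, gadd45aa and foxf2b, also named after their values were seen, had log2 fold changes of 0.05 ± 0.42, -0.57 ± 0.48 and -0.41 ± 0.25 (SE). Without the pair numbered 1, ctgfa was higher and foxf2b lower at a limma unadjusted p under 0.05. In that fit 175 of the 11763 genes tested were higher and 536 lower. Over the list the log2 fold changes ran from -0.78 for rbms3, named after its values were seen, to 0.77 for cyr61l1. The row ankrd1a, a much used YAP target, was listed at 0 in all libraries. Its paralog ankrd1b, named after its values were seen, was listed at 0 in 4 libraries and reached 2.65 FPKM in kat6a replicate 2. The log2 fold change of ankrd1b was 0.08 ± 0.47 (SE).

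Actin cytoskeleton genes that answer to SRF, a factor whose targets overlap with those of YAP, made up the last list. Of 21 rows 17 were tested, limma called none, and 1 had an unadjusted p under 0.05, a share near the 4.57% of all genes. This was vclb, which encodes the focal adhesion protein vinculin, at 8.16, 10.7, 6.37 and 4.66 FPKM in kat6a replicates 1 to 4 and 13.6, 11.8, 10.7 and 11.3 in WT replicates 1 to 4. It was lower in 4 of 4 pairs and overlapped the WT range only through kat6a replicate 2; the log2 fold change was -0.65 ± 0.26 (SE), where limma gave an unadjusted p of 0.0319 and an adjusted p of 0.958. Of the 17 log2 fold changes 7 were above 0, against 30.5% of all genes, with a median of -0.14. Under median-ratio, quantile and upper-quartile scaling that median was 0.004, 0.08 and -0.01. vclb was not at an unadjusted p under 0.05 under any of the 3 scalings or without the pair numbered 1. It was so in 7 of the 16 alternative fits, and its log2 fold change ran from -0.82 to -0.47 over them. With the block limma gave vclb an unadjusted p of 0.0144 and an adjusted p of 0.451. It was the 1 gene of the list lower at that unadjusted threshold, where 8.31% of all genes were. The myosin light chain gene myl9b, named after its values were seen, was at 38.5, 42.1, 39.4 and 63.5 FPKM in kat6a and 47.8, 23.8, 30.8 and 27.0 in WT. Its log2 fold change was 0.51 ± 0.26 (SE), at a limma adjusted p of 0.958. That value was 0.78 without the pair numbered 1 and 0.35 without kat6a replicate 4, the highest library. Its paralog myl9a had -0.01 ± 0.48 (SE), and tpm4b of the same list had -0.56 ± 0.28 (SE). Both were also named after their values were seen.

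Markers of other cell types were read beside ctgfa, and limma called none of them. All these lists overlapped between the groups in their summed level. Of the muscle markers 16 of 18 tested had a log2 fold change above 0, against 30.5% of all genes, with a median of 0.48. At an unadjusted p under 0.05 there were 6, all higher, against 0.646% of all genes, and with the block 9, against 2.09%. Without the pair numbered 1 there were 3, where 175 of the 11763 genes tested were higher. Under median-ratio, quantile and upper-quartile scaling there were 10, 5 and 8, all higher, where 181, 235 and 172 of all genes were. Those above 0 then numbered 17, 18 and 17 of the 18, against 45.0%, 52.3% and 43.9% of all genes. Summed over 23 rows the muscle markers gave 1208, 1167, 1929 and 1171 FPKM in kat6a replicates 1 to 4 and 938, 849, 871 and 1308 in WT replicates 1 to 4, and the part of muscle transcripts in the values of ctgfa was not tested.

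Epidermal markers went the other way, with 14 of 15 below 0 and a median of -0.83. For this and the following lists, 30.5% of all genes were above 0, so most genes lay below 0. Of these 1 had an unadjusted p under 0.05 and was lower, the keratin gene krtt1c19e, and with the block 2 were lower, against 3.92% and 8.31% of all genes; under median-ratio, quantile and upper-quartile scaling, and without the pair numbered 1, there was none at that threshold. The epidermal sums were 396 to 1156 FPKM in kat6a and 391 to 1669 in WT. Of the perichondrium, tendon and fibroblast markers 12 of 15 were below 0, with a median of -0.19, near that of all genes. The fibroblast gene fap was the 1 at an unadjusted p under 0.05, lower, where 3.92% of all genes were. With the block 2 of the 15 were lower, against 8.31% of all genes. Their sums were 387 to 500.2 FPKM in kat6a and 388 to 657 in WT. Markers of notochord and fin fold summed to 23.1 to 49.3 FPKM in kat6a and 29.2 to 92.3 in WT, with 6 of 9 below 0 and noto and tbxtb listed at 0 throughout. Endothelial markers summed to 25.1 to 45.3 FPKM in kat6a and 33.1 to 48.2 in WT, with 3 of 3 tested below 0. Of the cartilage markers 20 of 22 had a log2 fold change above 0, against 30.5% of all genes, with a median of 0.08. None had an unadjusted p under 0.05. With the block 2 of the 22 were higher, against 2.09% of all genes. Without the pair numbered 1 there were 15 above 0, against 35.2% of all genes. krtt1c19e and fap were named after their values were seen, and the part of these cell types in the members' values was not tested.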

How the data were processed

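The authors deposited 1 table of FPKM values for 32057 genes in 8 libraries, per the file headers. Per the submitters' processing notes, HISAT2 and StringTie were used with the build GRCz10; no version or setting is stated. Beside these stand columns of a comparison by the authors: a fold (ratio, WT divided by kat6a), a q-value and a p-value, per the file headers, from a test not named there. Columns were tied to samples by the library index in the labels; the library name of WT replicate 4 repeats a number, and its title was followed. Symbols are those of the table.

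kat6a was compared with WT by limma (3.58.1, R 4.3.3), its trend option on, using log2(FPKM + 1) of each gene whose mean FPKM reached 0.5, two-sided, with Benjamini-Hochberg adjustment over all 11763 genes and a threshold of 0.05. The fit was tested on simulated data, in which genes of higher level were changed by far more than any member here. The simulated noise was independent between libraries. That test therefore does not show how well the fit finds changes as small as those of the members. FPKM keeps no counts, so no depth or counting error can be given. Across genes, the departures of same-numbered libraries from their group means had r = 0.589, 0.347, 0.127 and 0.151 for numbers 1 to 4. The replicate numbers are those of the sample titles and were taken to pair the samples, because both groups share them. That same-numbered libraries belong together is not stated in the labels. No r was computed between libraries of different numbers, so the r values cannot show whether same-numbered libraries are more alike than others. Statements on pairs and on the block rest on this assumed pairing. The members and gene lists were chosen with earlier results of these data known. Named genes are the 10 members, other CCN and tead rows, kat6a, and per list up to 6 genes at an unadjusted p under 0.05 or else the 2 with the smallest p; any gene outside this rule is said to be named after its values were seen. The 5 genes most like ctgfa and the 5 most like yap1 were taken by Pearson r. Alternatives were a replicate block, 3 scalings, a pseudocount of 0.1, no filter or a mean FPKM of at least 1, each library left out, and the pair numbered 1 left out.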

Additional observations from a re-analysis of the deposited data

Results flagged for a closer look

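Of 26 genes, each looked at in both groups of 4 libraries, 6 values stood so far from the other 3 of their group that the gap to the nearest exceeded Dixon's critical share of the group's range, which chance does in about 1 of 20 groups. For 5 of the 6 the library was numbered 1. ctgfb was 20.7 FPKM in kat6a replicate 1, against 6.70 to 7.49 in the other kat6a libraries. wisp3 was lowest in kat6a replicate 1, at 579.5 FPKM, against 705 to 725. In WT replicate 1 cyr61 was 223 FPKM, against 61.7 to 71.9 in the other WT libraries. wwtr1 was 32.2 FPKM in WT replicate 1, against 17.2 to 19.1, and tead3b 14.0 there, against 4.76 to 5.85. myl9b was 63.5 FPKM in kat6a replicate 4, against 38.5 to 42.1 in the other kat6a libraries.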

How the results depend on the processing

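Of the members limma called 0 in the fit reported and in all 16 alternatives, with 1 at an unadjusted p under 0.05 in the fit reported and 0 to 3 in the alternatives. Over all genes 2 were called, and 1 with the replicate block or a pseudocount of 0.1. Scaling by median ratios, quantiles or upper quartiles, no filter, and leaving out the pair numbered 1 each gave 0; at an unadjusted p under 0.05 these 5 settings had 181, 235, 172, 93 and 175 genes higher and 349, 227, 359, 730 and 536 lower, against 76 higher and 461 lower as reported. Leaving out 1 library gave 0 to 5. The median of all genes was -0.04, 0.02 and -0.05 under the 3 scalings. Members above 0 numbered 5, and 4 to 8 with 1 library left out, the 8 without WT replicate 1. The share of all genes above 0 moved too, from 30.5% in the fit reported to 42.9% without WT replicate 1. It was 27.7% without kat6a replicate 1 and 27.2% without WT replicate 3, the fits with 4 members above 0. ctgfa, ctgfb, cyr61l1, wwtr1, tead1a and amotl2a kept their sign in all 16 alternatives, ctgfa from 0.44 to 0.99 and wwtr1 from -0.84 to -0.36. Signs turned under median-ratio and upper-quartile scaling for cyr61 at 0.0454 and 0.0324, tead1b at 0.0836 and 0.0688, wisp3 at 0.114 and 0.101 and amotl2b at 0.0405 and 0.0276; under quantile normalisation for tead1b at 0.158 and lats2 at 0.0193; and without the pair numbered 1 for cyr61 at 0.0942, wisp3 at 0.0064 and amotl2b at 0.0155. With 1 library left out the values ran from -0.333 to 0.314 for cyr61, -0.0879 to 0.315 for cyr61l2, -0.372 to 0.237 for tead1b, -0.377 to 0.0321 for yap1, -0.079 to 0.0285 for wisp3, -0.0817 to 0.399 for wisp2, -0.285 to 0.148 for amotl2b, -0.471 to 0.0162 for lats1 and -0.289 to 0.0284 for sav1. The causes were not tested. Depth is unknown, which limits every low gene here.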

Other observations

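In the authors' deposited table the fold of WT over kat6a was 0.747 for ctgfa, 0.635 for ctgfb and 0.888 for cyr61l1, with q-values of 0.877, 0.877 and 0.907, so these were higher in kat6a there too. For wwtr1 the authors' deposited table gives a fold of 1.19 with a q-value of 0.880. For yap1 the authors' deposited table gives 0.948 and for cyr61 0.843, both on the side of a higher level in kat6a, while the ratio of mean FPKM, kat6a over WT, was 0.898 for yap1 and 0.824 for cyr61.

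The 5 genes whose log2(FPKM + 1) followed that of ctgfa most closely over the 8 libraries, among 9000 genes above 0 in all of them, were sec22bb, magt1, gadd45ab, rpn2 and vps72a, with Pearson r between 0.936 and 0.961, and between 0.911 and 0.954 over the 6 libraries not numbered 1. For yap1 they were stk24b, stat1a, arpc1b, trim71 and cdc42ep4b, with r between 0.982 and 0.992, and between 0.877 and 0.986 over those 6. These genes are the extremes of 9000 and share libraries and scale, so the r values only describe likeness.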
